A study of Rattus norvegicus with 241 samples.

Results

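CD3D, CD3E, CD3G, CD4, CD8A, CD8B, GZMB, PRF1 and NKG7 are 9 genes that mark T cells and cytotoxic lymphocytes, picked by symbol (matched ignoring case) from the 20671 genes measured in sorted CD45+ cells and in whole-gland single cells of the rat mammary gland. All 9 were measured in each table. CD45, encoded by PTPRC, is carried by nearly all leukocytes, so the sort collects T cells together with B cells, macrophages, NK cells and others. The rats had received an oral inhibitor of the TGFβ receptor (TGFBRi), at 75 mg/kg and 2 doses a day, or vehicle, for 10 days (21 days in the estradiol experiment).

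CD3D, CD3E and CD3G encode chains of the CD3 complex, which assembles with the T cell receptor and passes its signal into the cell. CD4 and CD8 are the coreceptors that bind MHC class II and class I, respectively. CD8 is a pair of CD8A and CD8B chains on most cytotoxic T cells and can be a pair of CD8A chains on some other lymphocytes, and in the rat macrophages and monocytes also carry CD4. PRF1 (perforin) makes the pores through which GZMB (granzyme B), a protease, enters a target cell, and NKG7 is a protein of cytotoxic granules. TGFβ is known to restrain T cell activation and to hold down the cytotoxic program of T cells and NK cells.

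The start regions of the 3 cytotoxic genes are shown because NKG7 and PRF1 passed the test after estradiol and GZMB, which did not, was related to NKG7 across rats. The windows come from the RefSeq annotation of the GRCr8 assembly, run from 250 bases before to 50 bases after the annotated start, and are written along the gene's strand. Capitals mark TGTGGT, a core motif of RUNX factors, on either strand (ACCACA is the same motif read on the other strand). GZMB lies at chr15:34462420-34462719 on the minus strand, PRF1 at chr20:29788790-29789089 on the plus strand and NKG7 at chr1:102981247-102981546 on the plus strand.
GZMB: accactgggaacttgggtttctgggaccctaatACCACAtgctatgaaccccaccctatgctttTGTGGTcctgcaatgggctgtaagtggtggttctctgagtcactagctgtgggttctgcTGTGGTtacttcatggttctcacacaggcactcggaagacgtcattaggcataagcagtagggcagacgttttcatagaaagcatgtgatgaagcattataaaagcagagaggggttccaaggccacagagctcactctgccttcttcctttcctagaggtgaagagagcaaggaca
PRF1: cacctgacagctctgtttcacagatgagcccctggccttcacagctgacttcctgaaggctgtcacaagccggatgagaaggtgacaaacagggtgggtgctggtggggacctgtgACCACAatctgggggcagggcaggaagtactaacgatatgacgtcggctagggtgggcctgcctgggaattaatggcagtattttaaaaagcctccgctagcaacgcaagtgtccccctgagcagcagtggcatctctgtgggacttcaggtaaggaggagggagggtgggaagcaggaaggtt
NKG7: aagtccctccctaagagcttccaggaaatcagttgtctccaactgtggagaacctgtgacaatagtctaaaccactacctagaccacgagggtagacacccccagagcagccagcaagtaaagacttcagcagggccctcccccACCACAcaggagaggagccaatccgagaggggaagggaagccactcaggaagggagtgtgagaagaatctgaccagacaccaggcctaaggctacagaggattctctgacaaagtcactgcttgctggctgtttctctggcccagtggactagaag
Windows were found for 7 of the 9 genes. The reads were aligned to another assembly (rn6), so these coordinates hold for GRCr8 only. TGTGGT was present in 3 of the 7 windows, with 3 sites in GZMB and 1 each in PRF1 and NKG7, against 17.3% of all 33469 windows. AGGAAG, a core motif of ETS factors, was present in 6 of 7 windows (not that of CD8A), against 34.51% of all windows. GGTGTGA, a T-box motif, was in none of the 7 and in 3.83% of all windows. These matches describe the letters of the windows and are not evidence of binding.

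The bulk data held 74 libraries of sorted CD45+ cells from 65 rats, 6 of which gave a library of the gland and of a tumor. In the first experiment, young virgin ACI rats (first dose at 35 days of age) were taken at day 0, 7 or 14 after dosing ended, with 3 vehicle and 3 TGFBRi rats at each day. Young virgin SD rats (first dose at 24 days) were taken at day 0, with 4 rats per arm. Adult ACI rats, 18 to 24 weeks old, were taken at day 0 and were virgin (4 vehicle, 3 TGFBRi) or parous (2 vehicle, 4 TGFBRi). In the carcinogen experiment, SD rats dosed from 21 days of age then received 1 injection of NMU (N-nitroso-N-methylurea, 50 mg/kg) and were taken 87 days later. They gave gland leukocytes of 3 tumor-bearing vehicle, 3 tumor-bearing TGFBRi and 3 tumor-free TGFBRi rats, and tumor leukocytes of the same 6 tumor-bearing rats. In the estradiol experiment, virgin ACI rats were dosed from 38 days of age for 21 days, received an implant with 37 mg of estradiol (E2) or an empty one at 60 days of age, and were taken at the end of the tumor experiment. This gave 4 vehicle and 3 TGFBRi rats without E2, 4 tumor-bearing vehicle rats with E2, and 2 tumor-bearing and 4 tumor-free TGFBRi rats with E2. No tumor-free vehicle rat with E2 is among the libraries analysed here, so E2 and tumor in the vehicle arm cannot be told apart. The single cells came from whole glands of young SD rats at day 0, 3 vehicle and 6 TGFBRi.

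Library depth was 7006141 to 40042138 recovered reads (median 21924922). PTPRC was detected in all libraries, at normalized counts of 665 to 29930. Several libraries stood apart by genes of other cell types. The gland library of NMU rat D2N (tumor-bearing, TGFBRi) had the lowest PTPRC and a summed CPM (counts scaled to a common library total) of 24519 for the basal epithelium list, against 763 to 3282 in the other 5 paired gland libraries. E2 rat A4-14 (tumor-bearing, TGFBRi) had 121390 summed normalized counts of the neutrophil list, whereas the other rats of that experiment had at most 6053. In young ACI rats at day 0, the fibroblast list summed to 369590 to 743495 in vehicle and to 23839 to 150316 in TGFBRi rats. E2 rat A4-15 (tumor-free, TGFBRi) was sequenced in 4 parts that were averaged and that differed among themselves, with GZMB at 4637, 3703, 2160 and 1990 normalized counts. The part of these differences in the results was not tested except where a value without the library is given.

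The single cells showed which cells held each transcript. Of 103524 cells, 13035 formed a T-like class and 1385 an NK-like class, named from other marker genes after clustering without the 9 genes. CD3D reached 1044, CD3E 787 and CD3G 997 UMI CPM (the UMIs of a gene scaled to the same total of UMIs for every class or rat) in T-like cells, and 81% to 83% of all UMIs of the 3 genes lay in that class. A further 8.9% to 10.8% lay in cells left unnamed, outside the T-like share and tests. Of these, 65.1% of cluster 23 (median depth 11187 UMIs) and 84.4% of cluster 25 (4525.5 UMIs) held a CD3D UMI. A CD3D UMI was found in 85.1% of T-like cells (median depth 2837 UMIs) and in 3.23% of B-like cells (2287 UMIs), which should lack it. NK-like cells had 27.5 UMI CPM of CD3D and 3.90% of them held a UMI of it, close to the B-like share. CD3E differed, with 127 UMIs in the 23561 B-like cells and 75 in the far fewer NK-like cells. B-like cells held 939 UMIs of CD3D, so their background was not the same for each CD3 gene. The CD3D share alone therefore does not show that the NK-like class was free of CD3 transcripts. The source of these UMIs was not tested.

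CD4 was highest in macrophage-like cells. Macrophage-like cells had 281 UMI CPM of CD4, against 115 in NK-like, 87.2 in dendritic-like, 70.9 in T-like and 0.60 in B-like cells. By total, 29.7% of CD4 UMIs lay in macrophage-like cells, 29.4% in T-like cells, 11.1% in dendritic-like cells and 21.2% in cells left unnamed. Among the unnamed, cluster 15 (1706 cells) had 190 UMI CPM of CD4 and 136 of CD8A. CD8A and CD8B followed T-like cells, which held 81.4% and 83.9% of their UMIs at 366 and 104.5 UMI CPM. NK-like cells had 104.3 UMI CPM of CD8A and only 1.36 of CD8B. Among T-like cells, 30.8% held a CD8A UMI, against 19.1% of NK-like and 0.20% of B-like cells.

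The cytotoxic genes divided between the 2 classes. NKG7 reached 2597 UMI CPM in NK-like cells and 50.05 in T-like cells, and NK-like cells held 79.4% of its UMIs. GZMB was rare, with 148 UMIs in all cells together, 72.97% of them in NK-like cells (24.5 UMI CPM) and none in B-like or macrophage-like cells. PRF1 was at 470 UMI CPM in NK-like and 89 in T-like cells, and because T-like cells were more numerous they held 52.1% of its UMIs. B-like cells had 12.8 UMI CPM of PRF1, which was above their 0.21 of NKG7, and held 10.4% of its UMIs. The NK-like cluster was led by CCL5, GZMK and NKG7 and also by IL22, a cytokine gene of other innate lymphocytes.

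**Figure D1:**
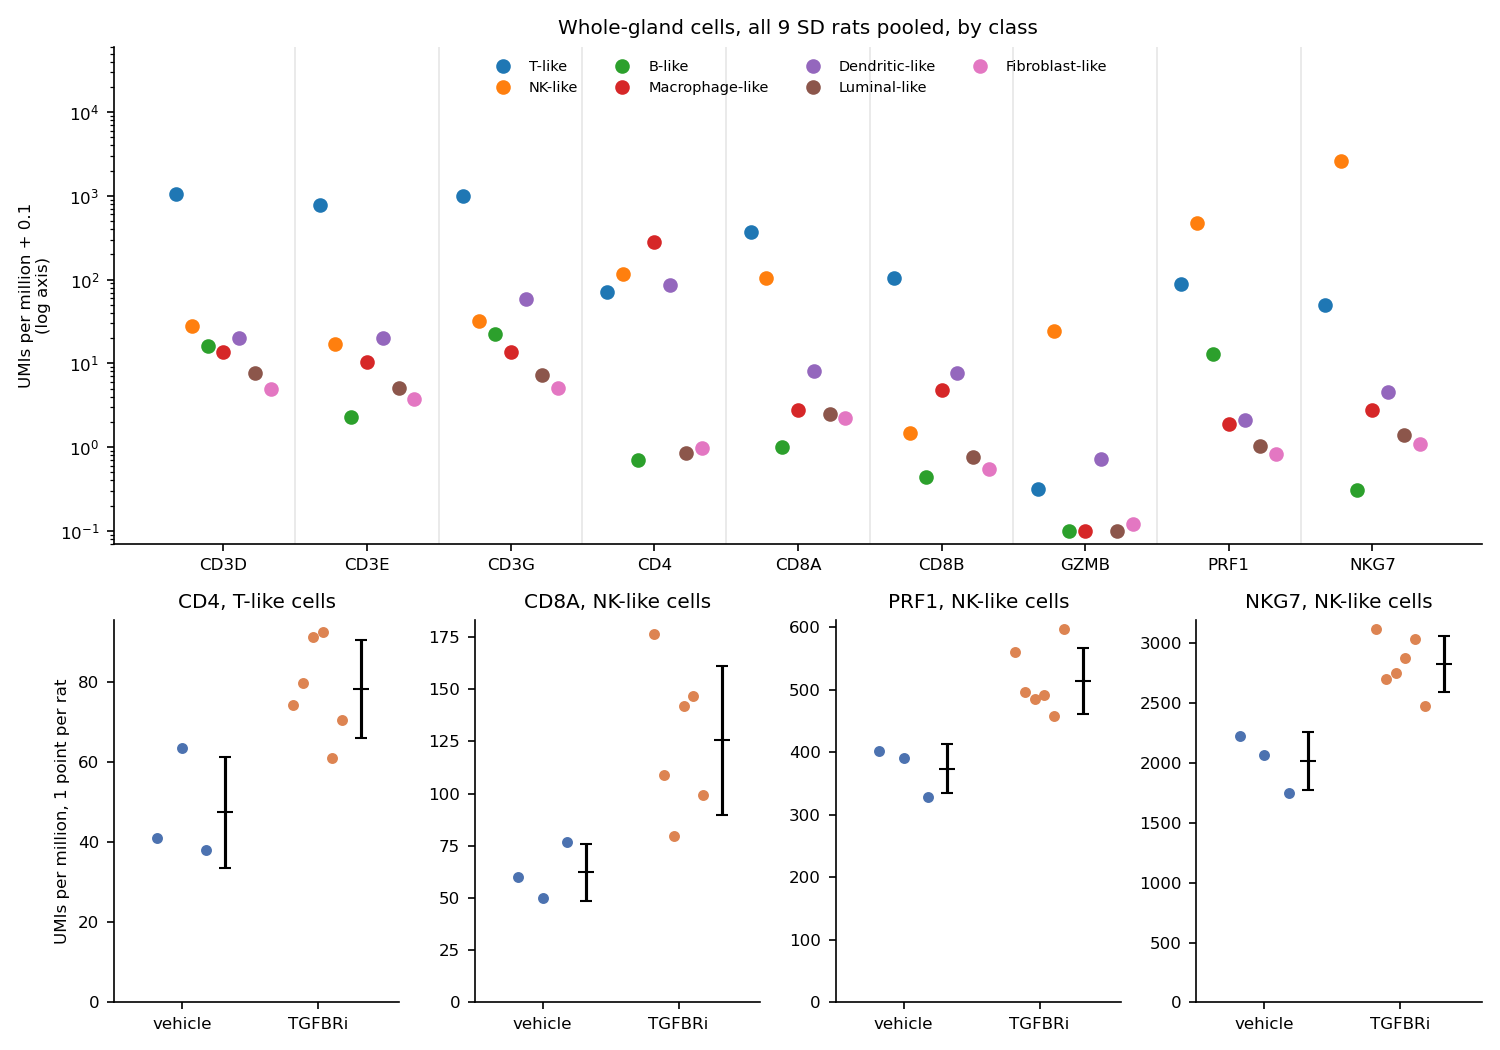
UMI CPM of the 9 genes by cell class over all 9 whole glands (log axis), and UMI CPM per rat in vehicle and TGFBRi rats for the genes that passed the test in T-like and NK-like cells, with 1 point per rat. CD3 genes are highest in T-like cells, CD4 in macrophage-like cells and NKG7, PRF1 and GZMB in NK-like cells, and all 6 TGFBRi rats lie above all 3 vehicle rats for NKG7 in NK-like cells (2474 to 3122 against 1750 to 2223). At a finer clustering this NKG7 difference was a log2 fold change of 0.09 (edgeR adjusted p = 0.84).

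Across the bulk libraries the 9 genes spanned wide ranges, from 224 to 14453 normalized counts for CD3D, from 608 to 16406 for CD4 and from 6.63 to 7875 for GZMB. GZMB has close relatives in the rat genome, and the description of the authors' counting (htseq-count, without strand) does not mention reads shared between relatives, so its counts are less certain than those of the other genes. In bulk, fewer cells of a type and less RNA per cell cannot be told apart. The 9 genes were tested in 26 bulk comparisons with limma on log2(normalized count + 1), fold changes being on that scale, and a gene was called at a Benjamini-Hochberg adjusted p of at most 0.05 over all genes tested. Of the 234 tests, 10 were called, in 3 comparisons. The count tests edgeR and DESeq2, run on the recovered reads, called none of the 9 genes in the other 23 comparisons, with these exceptions by DESeq2. It called NKG7 between vehicle ACI rats at day 14 and day 0, where it called 3.2% of all genes. It also called CD3E between vehicle rats with and without E2, where it called 1.86% of all genes.

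The first question was whether treatment changed T cell genes in young ACI glands and whether this lasted. At day 0, CD3D was at 8903, 224 and 274 normalized counts in vehicle rats LD3L, LD3R and LD4R and at 4839, 1914 and 1037 in TGFBRi rats LD10R, LD7L and LD7R. One vehicle rat, LD3L, was the highest of all 6 and the other 2 were the lowest, so the groups overlapped, with a log2 fold change of 1.37 (SE 1.24). CD3E (1.64, SE 1.05) and CD3G (1.43, SE 1.11) behaved alike. CD4 ran the other way between rats, at 4651, 12943 and 9273 in vehicle and 4599, 6507 and 10913 in TGFBRi rats. None of the 9 genes was called at day 0, where 2.85% of 14761 genes were called, and none had an unadjusted p under 0.05. Beside the fibroblast list, the basal epithelium (173 to 481 against 5205 to 18475), pericyte (520 to 978 against 3510 to 7238) and Schwann cell (2087 to 3324 against 4244 to 5902) lists were lower in TGFBRi than in vehicle rats without overlap, and the neutrophil list was higher (10461 to 49041 against 1219 to 2760). Their part in these values was not tested. Without LD3L, CD3E (3.14) and CD3G (3.09) passed the test, where 5.33% of all genes did.

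At day 7, 8 of the 9 genes were higher in TGFBRi than in vehicle rats, with a median log2 fold change of 0.91 against -0.01 over all genes. CD3D was at 3950, 295 and 4476 in vehicle and 3130, 5867 and 5048 in TGFBRi rats, vehicle rat LD2LR being the low one. The last TGFBRi rat, LD9R, has day 9 in its title and day 7 in its other labels and was taken as day 7. PRF1 was at 1092, 1138 and 1156 in vehicle and at 2070, 2118 and 1621 in TGFBRi rats, which lay above all vehicle rats (0.77, SE 0.31). None was called (background 0%), and 2 of the 9, CD8A and PRF1, had an unadjusted p under 0.05, as did 631 of all 14761 genes. The B cell list was higher in TGFBRi rats without overlap (26155 to 50232 against 8752 to 22218), and the basal epithelium (1782 to 6059 against 15833 to 22605) and plasma cell (10155 to 12826 against 13068 to 19801) lists were lower without overlap. Their part in the difference was not tested.

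At day 14 the CD3 genes were lowest in a TGFBRi rat. CD3D was at 6099, 5743 and 3890 in vehicle and at 5341, 3782 and 509 in TGFBRi rats, the last being LD20L, which also had the highest CD4 (15315). NKG7 was at 790, 1525 and 700 in vehicle and at 2296, 1546 and 1885 in TGFBRi rats, which did not overlap (1.00, SE 0.37, adjusted p = 0.90). None of the 9 genes was called (background 0%), and 1 had an unadjusted p under 0.05, as did 725 of all 14761 genes. The B cell list was lower in TGFBRi rats (15686 to 35924 against 47681 to 69900) and the plasma cell list higher (13345 to 16683 against 9502 to 10158), both without overlap, and their part was not tested. The change of the treatment effect from day 0 was not called for any of the 9 either, at day 7 (background 0.0135%) or day 14 (background 0.19%). At each of these days 1 of the 9 had an unadjusted p under 0.05. Of all 14761 genes, 1555 had one at day 7 and 2347 at day 14. Without LD3L, CD3G (-4.30) and NKG7 (1.93) passed at day 14, where 4.09% of all genes did.

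In the vehicle arm alone, CD3 genes were higher at day 14 than at day 0, by 2.65 for CD3D (SE 1.24), 2.28 for CD3E (SE 1.05) and 2.69 for CD3G (SE 1.11), while GZMB (-1.71, SE 0.72) and NKG7 (-1.28, SE 0.37) were lower. These 5 genes had an unadjusted p under 0.05, as did 2115 of all 14761 genes, and none was called (lowest adjusted p = 0.13, background 0.129%). GZMB was at 117, 380 and 790 at day 0 and at 80.9, 124 and 97.8 at day 14. All 5 passed the test without LD3L, the day 0 rat with the highest CD3 values: CD3D 4.37, CD3E 3.78, CD3G 4.35, GZMB -2.45 and NKG7 -1.56. In that fit 7.95% of all genes were called. Among 22 further T cell genes, 22 were higher at day 14 and 0 were called (median 1.41 against -0.04 over all genes). Among 24 further cytotoxic and NK genes 6 were higher and 1, CCL5, was called and lower (-2.12, adjusted p = 0.028). The B cell list was higher at day 14 without overlap (47681 to 69900 against 7940 to 36048), and the plasma cell (9502 to 10158 against 11404 to 17978) and Schwann cell (3217 to 4025 against 4244 to 5902) lists were lower without overlap. The neutrophil list had a median of 1129 at day 14 and 2372 at day 0, with overlap. The part of these lists in the differences was not tested. Day 7 and day 0 vehicle rats gave no call (background 0%) and no unadjusted p under 0.05.

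The 22 further T cell genes (receptor signalling and identity genes such as LCK) were never called in the treatment comparisons. Whether they ran with CD3 there was not tested. They were higher in TGFBRi rats for 20 genes at day 0, for 22 at day 7 and for 0 at day 14, with medians of 0.89, 0.84 and -0.79. The 24 cytotoxic and NK genes were higher for 18, 16 and 16, with medians of 0.18, 0.32 and 0.39.

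**Figure D2:**
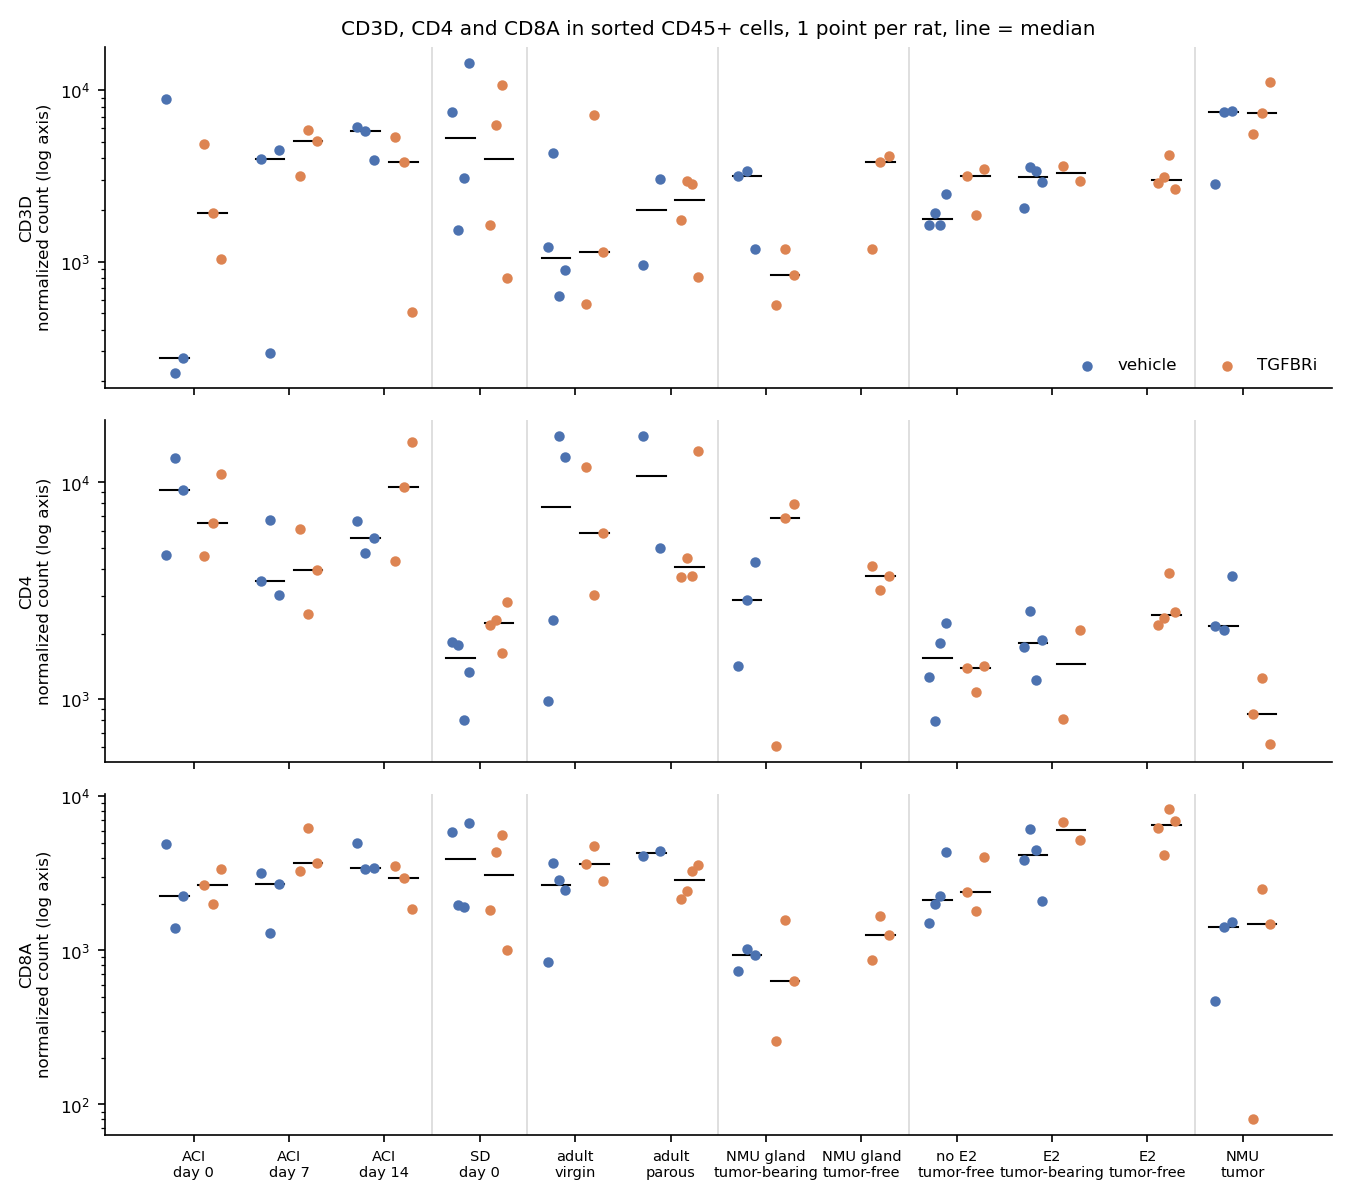
Normalized counts of CD3D, CD4 and CD8A (log axis) in sorted CD45+ cells by group, with 1 point per rat and a line at each group's median. Rats of 1 group differ widely, as for CD3D in young ACI vehicle rats at day 0 (224 to 8903), and treated and vehicle groups overlap in most comparisons.

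In young SD rats at day 0, the spread between rats was as wide. CD3D was at 7440, 1517, 3065 and 14453 in vehicle rats and at 1642, 6258, 10633 and 797 in TGFBRi rats (D7N, D7R, D8N and D8R), with no separation of the groups (-0.63, SE 0.84). The epithelial samples of these TGFBRi rats are labelled as from weak responders (D7N, D7R) and strong responders (D8N, D8R). CD4 was at 1844, 1778, 802 and 1337 in vehicle and at 2195, 2319, 1630 and 2807 in TGFBRi rats (0.68, SE 0.34, adjusted p = 0.87). CD8A ran with CD3, at 5832, 1966, 1915 and 6734 in vehicle and 1828, 4366, 5595 and 1005 in TGFBRi rats. GZMB was low throughout, from 6.63 to 57.1. None of the 9 genes was called (background 0%) and none had an unadjusted p under 0.05.

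In adult ACI rats the comparison asked whether parity changed the response. In virgin rats all 9 genes were higher with TGFBRi, by a median of 0.34 against -0.13 over all genes, and none was called (background 0.022%). GZMB was at 171, 740, 753 and 1332 in vehicle and at 1802, 1205 and 774 in TGFBRi rats, which overlapped (0.99, SE 0.66). CD4 was at 981, 2314, 16406 and 13108 in virgin vehicle rats N1N, N1R, N2N and N2R. In parous rats 4 of the 9 genes were higher and 5 lower with TGFBRi, and none was called (background 0%). CD3D was at 954 and 3044 in parous vehicle and at 1749, 2930, 2825 and 807 in parous TGFBRi rats.

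Parous and virgin rats were compared within each arm. In vehicle rats all 9 genes were higher in the 2 parous than in the 4 virgin rats, most of all CD8A (0.98, SE 0.50), with 0 calls (background 0%). In TGFBRi rats 3 were higher and 6 lower, with NKG7 the lowest (-1.21, SE 0.68) and 0 calls (background 0%). The treatment effect was lower in parous than in virgin rats for 8 of the 9 genes, with CD8A at -1.37 (SE 0.67) and NKG7 at -1.34 (SE 1.02), and none was called (background 0%). None of the 9 had an unadjusted p under 0.05 in these 5 comparisons of adult rats.

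In the gland of NMU-treated SD rats, the CD3 genes were lowest in tumor-bearing TGFBRi rats. CD3D was at 3140, 3356 and 1178 in tumor-bearing vehicle rats, at 556, 1177 and 835 in tumor-bearing TGFBRi rats and at 1175, 3816 and 4112 in tumor-free TGFBRi rats. Tumor-bearing TGFBRi rats lay below the vehicle rats for CD3D (-1.50, SE 0.53), with 1 near tie (1177 against 1178), and for CD3E (-1.18, SE 0.44). For CD3G (-1.08, SE 0.51) the groups overlapped, D3R being at 2425 and vehicle rat C5R at 1682. None of the 9 was called (lowest adjusted p = 0.48, background 0.015%) and 2 had an unadjusted p under 0.05, as did 1011 of all 13297 genes. Between tumor-free and tumor-bearing TGFBRi rats 8 of 9 genes were higher in the tumor-free, CD3D by 1.69 (SE 0.53). Of the 9, 4 had an unadjusted p under 0.05, as did 952 of all 13297 genes, and 0 were called (lowest adjusted p = 0.53, background 0%). All 9 genes were higher in tumor-free TGFBRi than in tumor-bearing vehicle rats, by 0.09 to 0.59. None was called (background 0%) and none had an unadjusted p under 0.05. The summed normalized counts of the basal epithelium list were 32315 to 343471 in tumor-bearing TGFBRi rats and 10785 to 23510 in the other 6 gland libraries. The pericyte list was also higher in the former (7617 to 54088 against 3437 to 7116) and the fibroblast list lower (117313 to 153479 against 170509 to 413837), and the dendritic cell list was lower than in tumor-free TGFBRi rats without overlap (5099 to 11981 against 15033 to 23653). The part of these lists in the lower CD3 values was not tested.

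The coreceptors of the same glands differed among themselves, and none was called. CD8B was at 36.2 to 247 in tumor-bearing TGFBRi and 111 to 242 in tumor-bearing vehicle rats (-1.01, SE 0.73), and CD8A differed by -0.48 (SE 0.54). CD4 was at 1431, 2878 and 4313 in tumor-bearing vehicle rats, at 608, 6834 and 7985 in tumor-bearing TGFBRi rats and at 4110, 3178 and 3687 in tumor-free TGFBRi rats. GZMB was at or below 77.75 in all of them but D3R (270).

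Of the 10 calls in bulk, 8 were between leukocytes of a tumor and those of the gland of the same NMU rat. The authors normalized the 2 kinds of library separately, so they were compared as CPM of the recovered reads, scaled by TMM, with the rat as a block in limma on log2(CPM + 1). In the 3 vehicle rats (C2N, C2R, C5R), CD3G was at 266, 208 and 119 CPM in the gland and at 456, 1345 and 1120 CPM in the tumor, higher in every rat and with no overlap (2.23, SE 0.45, adjusted p = 0.0079). NKG7 was at 114, 77.9 and 118 CPM in the gland and 228, 709 and 347 CPM in the tumor (1.90, SE 0.42, adjusted p = 0.013). CD3E was at 223, 194 and 158 against 216, 736 and 1015 CPM, with C2N level (1.52, SE 0.45, adjusted p = 0.048). CD3D was at 218, 236 and 83.5 against 244, 667 and 700 CPM (1.57, SE 0.47, adjusted p = 0.051). So 3 of the 9 genes were called, all higher in the tumor, where 11.3% of 12190 genes were called (3.59% higher, 7.73% lower). The calls rested on few rats: CD3G was lost without C2R or C5R (lowest log2 fold change 1.73), NKG7 without C2R (1.38), and CD3E without C2R, C5R, D3R or D4R (down to 0.94).

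In the 3 TGFBRi rats (D2N, D3R, D4R) CD3G rose from 45.4, 170 and 93.1 CPM in the gland to 947, 1848 and 2561 CPM in the tumor (4.19, SE 0.45, adjusted p = 0.00014). CD3D rose from 39.7, 82.5 and 59.5 to 509, 653 and 1062 CPM (3.58, SE 0.47, adjusted p = 0.00037). CD3E rose by 2.28 (SE 0.45, adjusted p = 0.0036), from 40.3, 145 and 103.6 to 190, 626 and 601 CPM. These rats showed the same direction in each pair.

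Of the coreceptors, CD8B was called. CD4 was at 43.5, 479 and 570 CPM in the gland and at 79.2, 112 and 59.7 CPM in the tumor of TGFBRi rats, lower in D3R and D4R and higher in D2N, the rat with the basal-rich gland library (-1.49, SE 0.60, adjusted p = 0.089). Without D2N it was -2.66 (adjusted p = 0.0012), where 18.6% of all genes were called. DESeq2 with D2N kept also called CD4 lower (-1.59, adjusted p = 0.048), where 31% of all genes were called. CD8B rose from 2.6, 17.3 and 3.6 to 20.5, 59.3 and 37.3 CPM (2.45, SE 0.57, adjusted p = 0.0088), and the call was lost without D4R (adjusted p = 0.075). CD8A was at 18.4, 110 and 45.01 CPM in the gland and at 7.4, 224 and 141 CPM in the tumor (0.47, SE 0.54), so D2N went against the other 2 rats.

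Of the cytotoxic genes NKG7 was called in both arms. In TGFBRi rats NKG7 was at 32.1, 156 and 74.9 CPM in the gland and 151, 641 and 502 CPM in the tumor (2.32, SE 0.42, adjusted p = 0.0022). PRF1 was at 16.3, 71.7 and 30.0 against 41.9, 63.5 and 76.8 CPM (0.82, SE 0.51) and GZMB at 1.0, 18.9 and 3.9 against 4.5, 9.5 and 3.6 CPM (0.15, SE 0.81). Neither difference was larger than the spread between rats allowed the test to call. In TGFBRi rats 5 of the 9 genes were called, all higher in the tumor, where 24.8% of genes were called (9.56% higher, 15.2% lower).

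Further T cell genes went with CD3. In TGFBRi rats 17 of 22 were called higher in the tumor and none lower (median 2.41 against -0.19 over all genes), led by the T cell receptor adaptor TRAT1 (5.79), SH2D1A (4.68) and the kinase LCK (3.20). In vehicle rats 7 of 22 were called higher (median 1.45), led by TRAT1 (3.75), the adaptor LAT (2.78) and CD2 (2.12). Of 23 further cytotoxic and NK genes, 10 were called higher in TGFBRi rats, led by GZMM (2.63), KLRD1 (3.13) and CD226 (3.84), and 4 in vehicle rats, led by GZMM (2.09), IL2RB (2.15) and KLRE1 (2.58).

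These differences depend on what the libraries are scaled to. In TGFBRi rats all 9 measured basal genes, 6 of 8 fibroblast genes and 7 of 12 macrophage genes were called lower in the tumor, and in vehicle rats 5 of 9 basal, 7 of 8 fibroblast and 0 of 12 macrophage genes. In vehicle rats the fibroblast list summed to 13667 to 29078 CPM in the gland and 653 to 1658 CPM in the tumor. The neutrophil, plasma cell, luminal, basal, fibroblast, endothelium, pericyte and Schwann cell lists were all lower in the tumor without overlap in both arms. The mast cell list was higher in the tumor, at 356 to 3618 against 36.4 to 77.7 CPM in vehicle and at 109 to 405 against 28.4 to 54.4 CPM in TGFBRi rats. The part of these lists in the calls was not tested. PTPRC itself was at 47.6, 123 and 233 CPM in the gland and at 636, 809 and 1163 CPM in the tumor of these rats. When every library was scaled to PTPRC, the median of all genes moved to -2.47 in TGFBRi and -1.01 in vehicle rats and none of the 8 calls remained. CD3D (0.67) and CD3G (1.27) stayed above 0 but uncalled in TGFBRi rats, while CD3E (-0.63), CD8B (-0.24) and NKG7 (-0.58) turned below 0. CD8A (-2.34), GZMB (-2.04), PRF1 (-2.03) and CD4 (-4.37) were then lower in the tumor and passed the test, where 66.3% of all genes did.

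**Figure D3:**
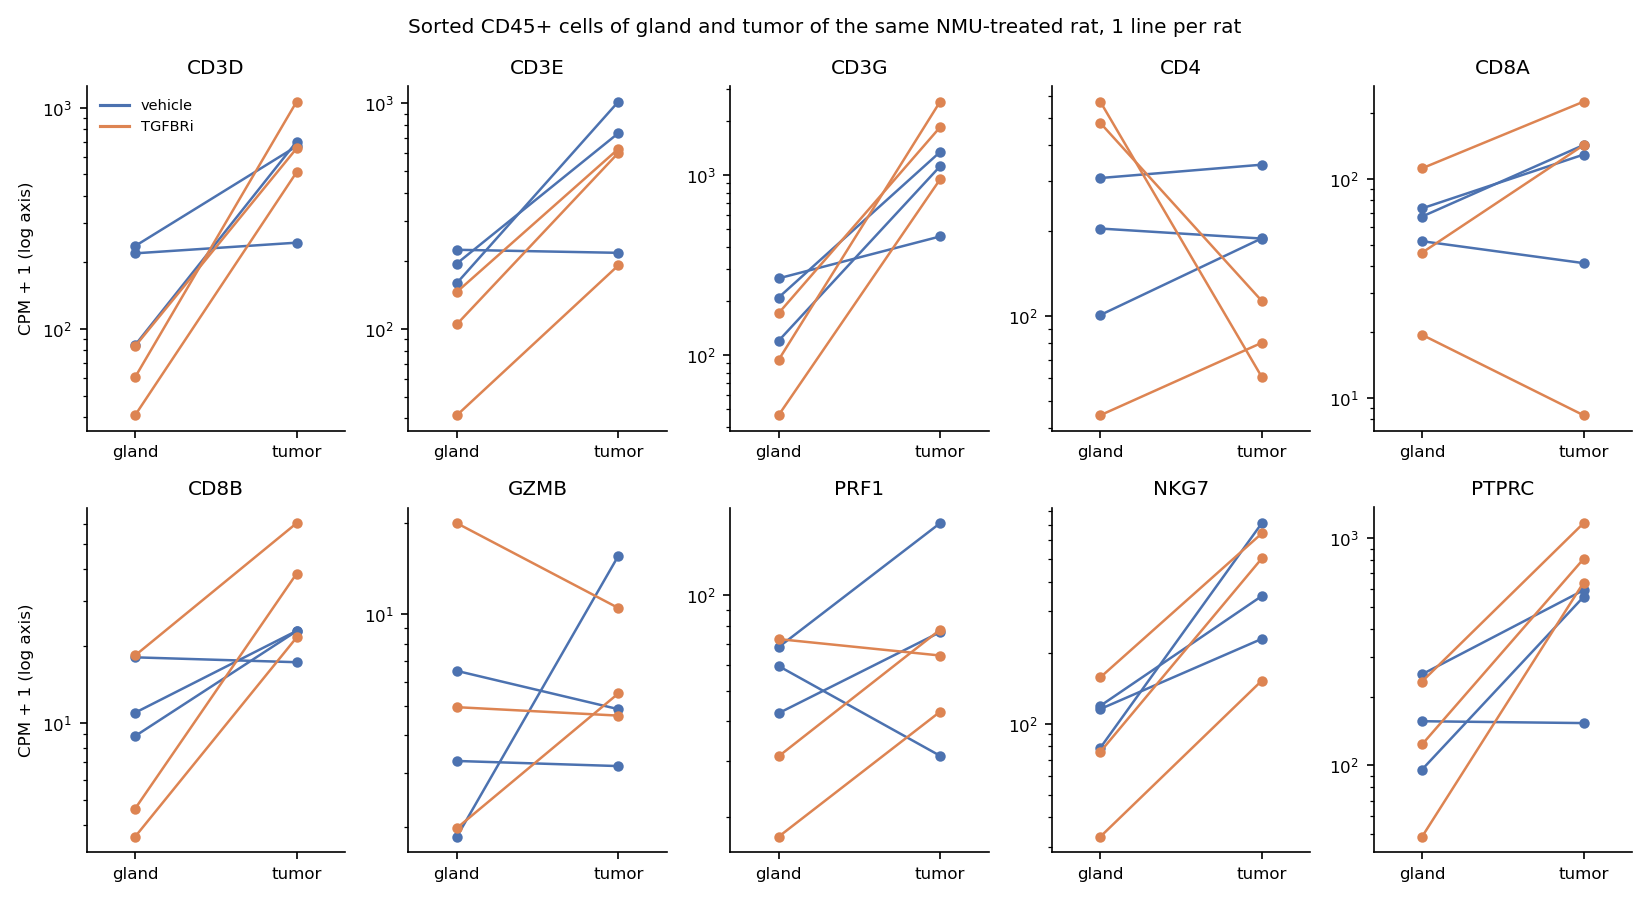
CPM + 1 (log axis) of the 9 genes and PTPRC in CD45+ cells of the gland and of a tumor of the same NMU-treated rat, with 1 line per rat (3 vehicle, 3 TGFBRi). CD3D, CD3G and NKG7 are higher in the tumor in all 6 rats, CD4 is lower in 2 of the 3 TGFBRi rats, and PTPRC is higher in 5 of 6. Scaled to PTPRC, NKG7 turns below 0 in TGFBRi rats (-0.58).

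A ratio of 2 genes within a library does not depend on the scaling, and the ratio of CD3E to CD3G was looked at after these values were seen, so it is given with no test. It was lower in the tumor than in the gland of the same rat in 6 of 6 rats. In vehicle rats it was 0.84, 0.93 and 1.33 in the gland and 0.47, 0.55 and 0.91 in the tumor, and in TGFBRi rats 0.89, 0.85 and 1.11 against 0.20, 0.34 and 0.23. The mean log2 difference was -1.31 (SD 0.73, n = 6). In the other gland libraries it ranged from 0.43 in an adult rat to 3.72 in E2 rat A4-14. The ratio of CD8B to CD8A in tumors was 0.13 to 0.54 in 5 rats and 2.79 in D2N, where CD8A was at 79.9 and CD8B at 223 normalized counts.

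Between tumors of the 2 arms none of the 9 genes was called (background 0%). CD4 was at 2168, 2083 and 3690 normalized counts in vehicle and at 860, 1249 and 623 in TGFBRi tumors, which did not overlap (-1.54, SE 0.43, unadjusted p = 0.0023, adjusted p = 0.61). It was the 1 of the 9 genes with an unadjusted p under 0.05, which 841 of all 12641 genes had. CD3D was at 2836, 7460 and 7583 in vehicle and at 5533, 7302 and 11085 in TGFBRi tumors (0.49, SE 0.43). The macrophage list summed to 29155 to 257436 in vehicle and 28480 to 95557 in TGFBRi tumors, and the plasma cell list to 6807 to 7949 and 2504 to 5057, only the latter list without overlap. PTPRC was at 589, 551 and 153 CPM in vehicle and at 636, 809 and 1163 CPM in TGFBRi tumors, also without overlap. The part of these lists and of PTPRC in the lower CD4 was not tested.

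In the estradiol experiment NKG7 and PRF1 were higher in tumor-free TGFBRi rats with E2 than in TGFBRi rats without it. NKG7 was at 1218, 1112 and 1548 without E2 and at 4727, 2459, 5182 and 3509 with E2, with no overlap (1.57, SE 0.42, adjusted p = 0.039). PRF1 was at 1852, 1962 and 3176 without E2 and at 5756, 2747, 5092 and 4803 with E2, where rat A4-16 lay below A4-40 of the other group (0.97, SE 0.27, adjusted p = 0.045). GZMB was at 290, 250 and 407 against 3123, 594, 1495 and 2775, again with no overlap, but its spread was large (2.43, SE 0.87, adjusted p = 0.11).

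The T cell genes also had positive log2 fold changes but did not pass the test. CD3E was at 7142, 5165 and 7849 without E2 and at 9645, 9349, 14510 and 10903 with E2 (0.72, SE 0.21, adjusted p = 0.055). CD8A was at 2401, 1792 and 4064 against 6211, 4190, 8267 and 6901 (1.26, SE 0.38, adjusted p = 0.059). CD4 was at 1395, 1086 and 1423 against 2208, 2372, 3816 and 2525 (1.04, SE 0.35, adjusted p = 0.088). These 3 genes did not overlap between the groups, whereas CD3D did, at 3171, 1878 and 3468 against 2858, 3106, 4202 and 2656 (0.20, SE 0.24). The share of all genes without overlap was not computed, here or for other groups said not to overlap, so non-overlap has no background. In all, 2 of the 9 genes were called and all 9 were higher (median 0.97 against -0.03 over all genes), where 5.58% of 13483 genes were called (4.26% higher, 1.31% lower).

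Of 25 further cytotoxic and NK genes 18 were called higher and none lower (median 2.31), led by the interleukin receptor chain IL2RB (2.13, adjusted p = 0.0028), interferon gamma IFNG (3.24, adjusted p = 0.0078) and the protease CTSW (2.15, adjusted p = 0.0083). Of 23 further T cell genes, CD96 (3.03), ZAP70 (1.21) and 1 other were called higher and LEF1, a factor of naive T cells, lower (-2.14, adjusted p = 0.033), with a median of 0.53. The B cell list summed to 38836 to 41735 without E2 and to 5585 to 35083 with E2, the macrophage list to 12973 to 16423 and 21768 to 70764, and the neutrophil list to 784 to 1292 and 2710 to 6053. The plasma cell list summed to 8779 to 9848 without E2 and 12913 to 18312 with E2, and the endothelium list to 4670 to 5348 and 2757 to 4035. None of these 5 lists overlapped. The macrophage, neutrophil and plasma cell lists were higher with E2, and the B cell and endothelium lists were lower. The part of these lists in the result was not tested.

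Both calls were near the threshold. NKG7 was lost without A4-10, A4-15, A4-20, A4-24, A4-38, A4-40 or A4-4 (adjusted p up to 0.13, log2 fold change 1.43 to 1.79), and PRF1 without any of 10 of the 17 rats (adjusted p up to 0.17, 0.83 to 1.22), namely A4-10, A4-15, A4-1, A4-20, A4-24, A4-28, A4-37, A4-38, A4-40 and A4-4. DESeq2 on the recovered reads called 6 of the 9 genes (11.4% of all genes), edgeR 2 (4.99%) and PTPRC scaling 0 (3.29%).

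In the vehicle arm all 9 genes were also higher with E2, in rats that bore tumors, by a median of 0.70 against -0.04 over all genes. CD3E was at 4942, 4883, 5261 and 7570 without E2 and at 7847, 10981, 12054 and 8268 with E2, with no overlap (0.79, SE 0.20, adjusted p = 0.098). NKG7 was at 783, 946, 1292 and 2364 against 3730, 3870, 2227 and 1427 (1.08, SE 0.39, adjusted p = 0.27) and GZMB at 253, 312, 420 and 1340 against 2583, 965, 203 and 1110 (0.91, SE 0.80). None was called with limma (background 0.282%) and 4 had an unadjusted p under 0.05, as did 1626 of all 13483 genes. CD3E passed without A4-8 (0.94, adjusted p = 0.026), where 1.36% of all genes did. The luminal epithelium list (1742 to 5918 against 6751 to 21205) and the pericyte list (182 to 311 against 353 to 519) were lower with E2 without overlap, and their part was not tested. Of 25 further cytotoxic and NK genes 23 were higher and 0 called (median 1.36).

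The E2 difference was not shown to differ between arms. The rats with E2 were tumor-free in the TGFBRi arm and tumor-bearing in the vehicle arm, so arm and tumor cannot be told apart here. The difference of differences was 1.51 for GZMB (SE 1.18), 0.59 for PRF1 (SE 0.37) and 0.49 for NKG7 (SE 0.57), and none of the 9 was called (background 0%) or had an unadjusted p under 0.05. The tumor-free TGFBRi rats and tumor-bearing vehicle rats with E2 were compared with each other, and all 9 genes were higher in the former by 0.12 to 0.94, with 0 calls (background 0%) and no unadjusted p under 0.05. Without E2, TGFBRi and vehicle rats differed by at most 0.57 in either direction, with 0 calls (background 0%) and 1 unadjusted p under 0.05, for CD3D (0.54, SE 0.24). Of all 13483 genes, 330 had an unadjusted p under 0.05.

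The 2 tumor-bearing TGFBRi rats with E2 differed from each other. GZMB was at 7875 in A4-14 and 734 in A4-9, NKG7 at 7947 and 2934, CD4 at 812 and 2092 and CD3G at 2509 and 5088. Against tumor-bearing vehicle rats none of the 9 was called (background 0.0223%, no unadjusted p under 0.05). Against tumor-free TGFBRi rats none was called (background 0.0668%), with 1 unadjusted p under 0.05, for CD4, against 1713 of all 13483 genes. CD4 was higher in tumor-free rats (1.03, SE 0.40, adjusted p = 0.33), and by 1.71 in the fit without A4-9. That fit left A4-14, the rat with the high neutrophil list, as the only tumor-bearing TGFBRi rat, and it was assumed to vary like the rats of the other groups.

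**Figure D4:**
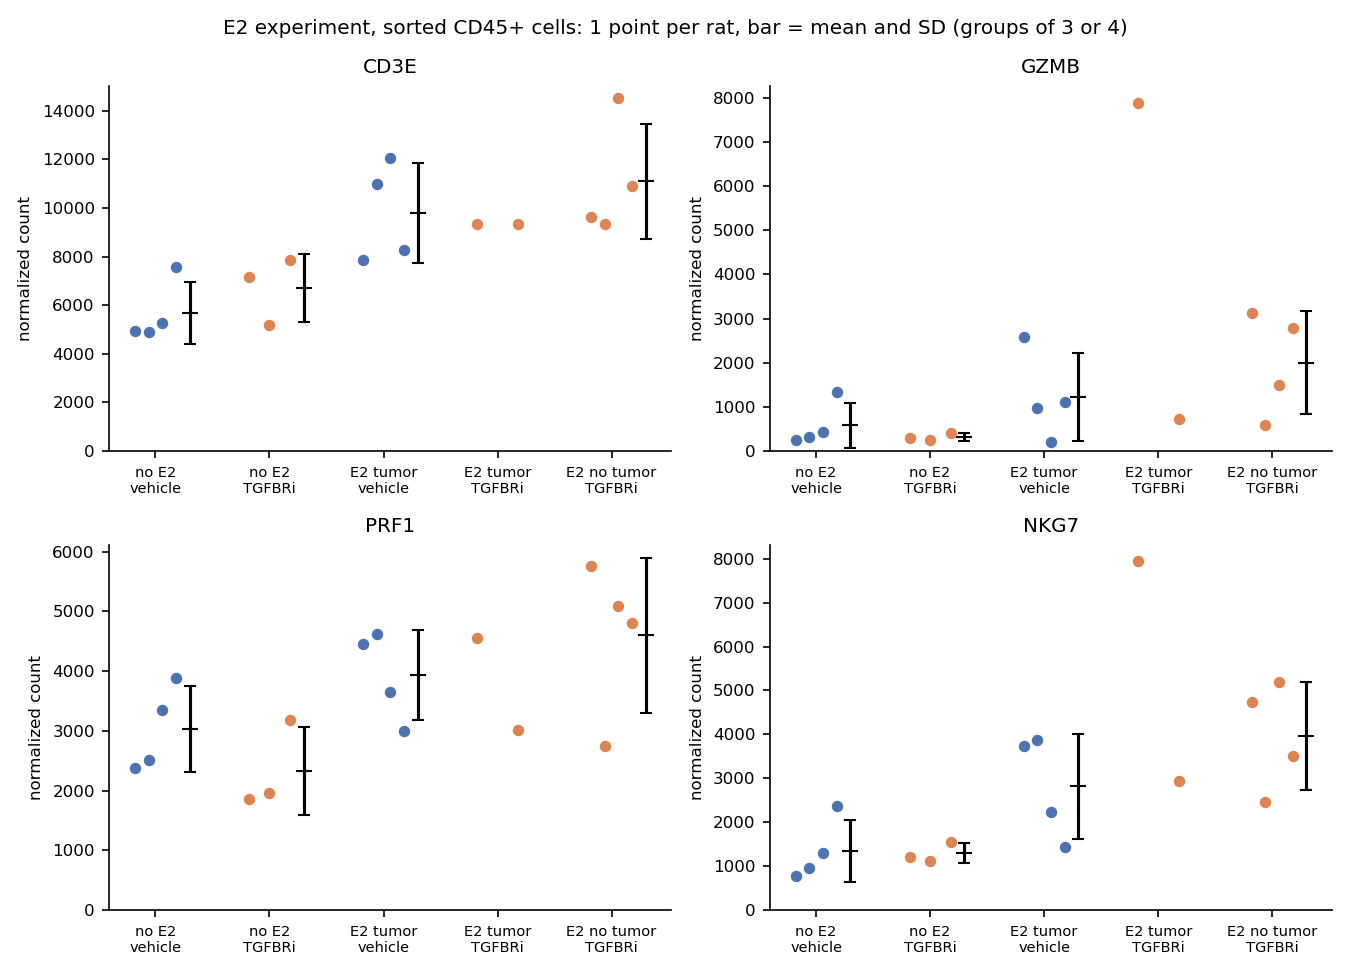
Normalized counts of the 9 genes in CD45+ cells of the estradiol experiment by group, with 1 point per rat and a bar at the mean and SD for groups of 3 or 4 rats. NKG7 lies at 1112 to 1548 in TGFBRi rats without E2 and at 2459 to 5182 in tumor-free TGFBRi rats with E2, and GZMB spreads from 203 to 7875 among rats with E2.

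In whole glands of young SD rats the treatment comparison was repeated within cell classes, on UMIs summed per rat with edgeR at an adjusted p of at most 0.1. In T-like cells CD4 was at 41.04, 63.5 and 38.0 UMI CPM in the 3 vehicle rats and at 61.2, 77.1 and 92.6 (lowest, median and highest) in the 6 TGFBRi rats. The groups overlapped by 1 rat, and CD4 was called (log2 fold change 0.74, SE 0.17, adjusted p = 0.014), also without each rat in turn. CD3E was at 734, 707 and 479 against 768, 821 and 861 with no overlap (0.36, SE 0.099, adjusted p = 0.061), and lost its call without vehicle 2, TGFBRi 1, TGFBRi 11 or TGFBRi 14 (adjusted p up to 0.13). CD3E also lost its call at a finer clustering (Leiden resolution 1.5), where CD4 kept its own. CD3D (-0.02) and CD3G (0.03) did not differ beyond their error. CD8A was at 346, 254 and 255 against 293, 377 and 473 (0.41, adjusted p = 0.23) and CD8B at 110, 80.8 and 69.8 against 79.8, 102.9 and 139 (0.28, adjusted p = 0.54).

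Thus 2 of the 8 genes tested in T-like cells were called, both higher, where 8.42% of 12595 genes were called (4.69% higher, 3.73% lower). GZMB had under 10 UMIs in T-like cells and was not tested. PRF1 was at 113, 99.6 and 83.8 against 77.5, 85.3 and 92.4 (-0.21, adjusted p = 0.28) and NKG7 differed by 0.04 (adjusted p = 0.96). At the finer clustering PRF1 was called lower (-0.33, adjusted p = 0.076), where 8.28% of all genes were called. Standard errors here come from DESeq2 on the same sums. In T-like cells of the main clustering the Schwann cell list (98.5 to 128 against 40.2 to 80.8 UMI CPM) and the dendritic cell list (957 to 1124 against 867 to 931) were higher with TGFBRi without overlap. The macrophage list (11.5 to 21.6 against 22 to 30.2) was lower, also without overlap. Their part in the calls was not tested.

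The T-like class held 2 clusters. Cluster 4 (9139 cells) was led by CD8A and LEF1 and had 536 UMI CPM of CD8A and 41.1 of CD4. Cluster 10 (3896 cells) was led by TNFRSF4, FOXP3 and IL2RA, genes of regulatory and activated T cells, and had 64.9 of CD8A and 124 of CD4. Its share of T-like cells was 29% ± 8.9 (SD, n = 3) in vehicle and 32.2% ± 10.6 (SD, n = 6) in TGFBRi rats (exact permutation p = 0.75, two-sided). In fits of each cluster alone, added after the data were seen, CD4, CD3E and CD8A were called in each, where 7.35% of all genes were called in cluster 4 and 6.60% in cluster 10. CD4 was at 1.03 in cluster 4 and 0.52 in cluster 10, CD3E at 0.32 and 0.47, and CD8A at 0.42 (adjusted p = 0.063) and 1.34 (adjusted p = 0.0087).

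In NK-like cells 4 of the 8 genes tested were called and all were higher with TGFBRi, where 3.39% of 9789 genes were called (2.10% higher, 1.29% lower). NKG7 was at 2223, 2069 and 1750 UMI CPM in vehicle and at 2474, 2814 and 3122 (lowest, median and highest) in TGFBRi rats, with no overlap (0.48, SE 0.11, adjusted p = 0.029), and was called without each rat in turn. CD8A was at 60.3, 49.9 and 76.7 against 79.6, 126 and 177 with no overlap (1.02, SE 0.30, adjusted p = 0.020), and was lost without vehicle 1 or vehicle 2 (adjusted p up to 0.20). PRF1 was at 402, 390 and 329 against 458, 494 and 598, again apart (0.44, SE 0.14, adjusted p = 0.073).

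GZMB rested on 10, 2 and 2 UMIs in vehicle and 9, 14, 15, 12, 30 and 14 UMIs in TGFBRi rats (1.55, SE 0.58, adjusted p = 0.078). Its call was lost without any of vehicle 2, vehicle 4, TGFBRi 1, TGFBRi 11 or TGFBRi 14 (adjusted p up to 0.37), and that of PRF1 without vehicle 1, vehicle 2, TGFBRi 1, TGFBRi 2, TGFBRi 6 or TGFBRi 14 (adjusted p up to 0.25). At the finer clustering NKG7 was at 0.09 (adjusted p = 0.84), PRF1 at 0.07 (adjusted p = 0.89) and GZMB at 1.04 (adjusted p = 0.33), so these 3 calls depend on where the class is cut, while CD8A kept its call. CD3E (1.08, adjusted p = 0.00062) and CD3G (0.63, adjusted p = 0.019) were newly called there, where 3.37% of all genes were called. The NK-like class of the finer clustering was not a part of the main one, since it also took in other cells. It held 223, 121 and 116 cells in vehicle rats, against 208, 138 and 115. In TGFBRi rats it held 118 to 256 cells, against 86 to 220. The IL22-led part of the class took 28.2% ± 2.6 (SD, n = 3) of it in vehicle and 19.3% ± 5.9 (SD, n = 6) in TGFBRi rats (exact permutation p = 0.060, two-sided), and its part in the 4 differences was not tested. The fibroblast list summed to 287 to 1355 UMI CPM in NK-like cells of vehicle and to 111 to 313 in those of TGFBRi rats, which overlapped. The B cell list was higher with TGFBRi without overlap (268 to 337 against 164 to 205) and the macrophage list lower without overlap (10 to 48.2 against 53.8 to 91.3), and their part in the 4 differences was not tested.

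Further T cell and cytotoxic genes were also counted, although some of them took part in the clustering and naming. In T-like cells 13 of 25 T cell genes were called higher and 1 lower, led by CD5 (0.80) and CD27 (0.64) among the higher and IL7R (-0.61) as the lower one, and 2 of 24 cytotoxic genes were higher, CRTAM (1.14) and GZMM (0.49), where 4.69% of all genes were called higher. In NK-like cells 5 of 25 cytotoxic genes were called higher, led by GZMM (0.83), CCL5 (0.77) and KLRE1 (0.92), and of 24 T cell genes 4 were higher and IL7R was lower (-1.26), where 2.10% of all genes were called higher and 1.29% lower. In macrophage-like cells GZMB had under 10 UMIs and was not tested. None of the others was called with edgeR (background 3.83%, no unadjusted p under 0.05). DESeq2 called none either, but it gave an adjusted p only for CD3D, CD3G and CD4. CD4 was at 234 to 345 UMI CPM in vehicle and 238 to 371 in TGFBRi rats (-0.23, adjusted p = 0.63).

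The share of T-like cells had a higher mean with TGFBRi but did not pass the test. They were 24.5% ± 3.4 (SD, n = 3) of leukocyte-class cells in vehicle and 33.2% ± 6.7 (SD, n = 6) in TGFBRi rats (exact permutation p = 0.071, two-sided, the smallest possible being 0.012). Leaving out 1 rat at a time gave exact permutation p = 0.036 without TGFBRi 6 and 0.089 to 0.25 without each of the others. NK-like cells were 3.44% ± 0.75 (SD, n = 3) and 3.23% ± 0.78 (SD, n = 6) (exact permutation p = 0.70). With each cell thinned to 1500 UMIs, 10322 T-like cells were deep enough, 3986 of them held a CD4 or CD8 UMI, 20 held both and 61.4% held neither. Of cells with one, those with CD8 and no CD4 were 79.5% ± 10.3 (SD, n = 3) in vehicle and 72.7% ± 6.0 (SD, n = 6) in TGFBRi rats (exact permutation p = 0.24), and with all UMIs 74.1% and 62.8% (exact permutation p = 0.083). Thinned cells with neither were 66.1%, 70.7% and 66.9% in vehicle and 54.4% to 65.2% in TGFBRi rats, without overlap. The part of this difference in the CD8 shares was not tested.

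How the genes ran together between rats was asked over the 65 gland rats, on log2 values centred on each group's mean. CD3D and CD3G went almost in step (Pearson r = 0.970, Spearman rho = 0.954, permutation p = 1e-05 for both, the smallest that 100000 permutations can give, and 3.4e-05 and 3.6e-05 adjusted over 54 pairs), with r = 0.961 without the 2 rats farthest from the median of CD3D and between 0.621 and 0.992 within each of the 5 experiments. CD4 ran against CD3D (r = -0.446, rho = -0.505, permutation p = 0.00064 and 0.00057, adjusted 0.0014 and 0.0013), with r = -0.420 without 2 rats. Within experiments this was -0.838 in young ACI, -0.696 in adult ACI and -0.299 in young SD rats but 0.0995 in NMU and 0.257 in E2 rats, so it was not below 0 in the last 2. Among the NMU rats, D2N, with the basal-rich gland library, was low in both. Its centred CD4 was -2.40 and its centred mean of the 3 CD3 genes -0.87. The NMU correlation without D2N was not computed.

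CD4 ran with the macrophage list instead (r = 0.749, rho = 0.754, permutation p = 1e-05 for both, adjusted 3.4e-05 and 3.6e-05), with r = 0.723 without 2 rats and 0.974 in young ACI, 0.967 in adult ACI, 0.936 in NMU, 0.688 in young SD and 0.251 in E2 rats. GZMB and NKG7 were likewise related (r = 0.742, rho = 0.739, permutation p = 1e-05 for both, adjusted 3.4e-05 and 3.6e-05), with r = 0.739 without 2 rats and 0.658 to 0.849 within experiments. Among the E2 rats, A4-14 and A4-9 ran against the relation of CD4 to the macrophage list. They make up 1 group, so centring makes their values mirror each other. Centred CD4 was -0.68 in A4-14 and 0.68 in A4-9, and the centred macrophage list was 1.53 and -1.53. The correlation in E2 rats without this group was not computed. All values of a rat come from 1 library, so its purity and depth are shared by the genes compared.

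Over 9573 genes, those most like the mean of CD3D, CD3E and CD3G across the 65 rats were GRAP (r = 0.958), LCK (0.945), GIMAP5 (0.939), PTPRCAP (0.931) and FAM189B (0.923). Those most like the mean of GZMB, PRF1 and NKG7 were CCL5 (0.8995), KLRB1A (0.856), GZMM (0.810), TREM1 (0.804) and AMZ2 (0.799).

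**Figure D5:**
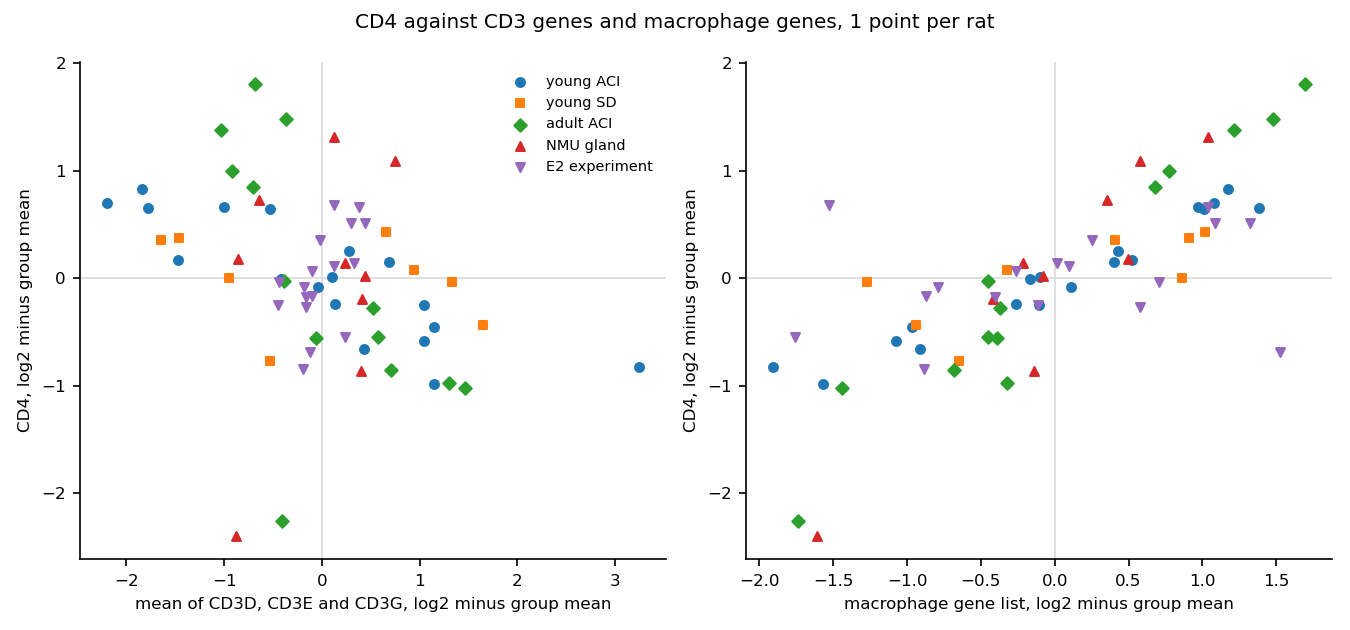
CD4 against the mean of the 3 CD3 genes (left) and against the macrophage list (right), as log2 normalized counts minus the mean of the rat's group, with 1 point per rat (65 gland libraries) coloured by experiment. CD4 is low where CD3 is high in the young and adult ACI rats but not in the ACI rats of the E2 experiment. It rises with the macrophage list in all experiments but least in the E2 rats (r = 0.251), where tumor-bearing TGFBRi rats A4-14 and A4-9 lie the other way.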

How the data were processed

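Sorted CD45+ cells were profiled by bulk RNA-seq and whole glands by droplet single-cell RNA-seq. The authors aligned the bulk reads with STAR 2.5.1b to rn6, counted genes with HTSeq and deposited normalized counts (unit: signal) from DESeq2 1.30.1, each experiment separately. The authors deposited whole UMI counts per cell from Cell Ranger 7.0.0. The authors had filtered cells and genes before deposit, and no further filter on cells was applied.

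Normalized counts were divided by each library's value of 1 read, which gave whole reads for 100% of 911059 values (tolerance 0.001 reads). Genes summing to at least 10 were tested with limma 3.58.1 (trend, robust) on log2(value + 1), all groups of an experiment in 1 model. Reads were also tested with edgeR 4.0.16 and DESeq2 1.42.0. Rows naming no gene took 30.7% to 42.5% of the adult and E2 tables and were left out. Cells were clustered with scanpy 1.11.5 (Leiden resolution 0.8) without the 9 genes, and 9371 of 103524 (9.05%) stayed unnamed. Each rat had 7900 to 16424 cells and a median of 2820 to 3885 UMIs per cell. Libraries shared 88 to 284 barcodes a pair, at most 2.51% of the smaller. No doublets were removed in the main fit, and leaving out the 6% of cells with the highest Scrublet scores was an alternative. UMIs were summed per rat and class and tested with edgeR, and the tests were tried on simulated data. The p-values measure the spread between rats.

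Named genes were all 9 members, at most 3 genes per further list where any was called, and the 5 genes most like each group. The members and lists were chosen with earlier results of these data known. Alternatives were another pseudocount (10), other filters, scalings, count tests, clusterings, the groups compared alone and leaving out each rat.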

Additional observations from a re-analysis of the deposited data

Results flagged for a closer look

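In 9 of 93 groups of 4 to 10 rats 1 rat lay far from the others by Dixon's criterion, which chance alone meets in about 1 of 20 groups. Among virgin adult vehicle rats, N1R had CD3D at 4303.98 and CD3G at 9345.22 normalized counts, above 633 to 1220 and 1448 to 1956 in the other 3. Among vehicle rats without E2, A4-8 had CD3E at 7569.92 and GZMB at 1339.69, above 4883 to 5261 and 253 to 420. Among parous TGFBRi rats, P2R had CD4 at 13997.6 and GZMB at 2421.66, above 3675 to 4467 and 619 to 771. In macrophage-like cells of TGFBRi whole glands, rat 1 had CD3D at 74.4441 and CD3G at 68.7176 UMI CPM, above 3.36 to 23.2 and 3.36 to 20.2, and rat 2 had CD4 at 371.036, above 238 to 284.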

How the results depend on the processing

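Of 5539 recomputed values of single genes, 5421 kept their side of the threshold, 63 lost the call, 48 gained one and 7 reversed with a call in either fit. A change of sign with no call in either fit counts among the 5421. Most of the 5539 values are of genes not called in the main fit (10 of 234 bulk tests were called). The 5421 therefore does not show how stable the calls were, and the 63 lost calls are all of called genes. Scaled to PTPRC, NMU TGFBRi rats gave tumor minus gland values of -0.63 (CD3E), -2.34 (CD8A), -0.24 (CD8B), -2.04 (GZMB), -2.03 (PRF1) and -0.58 (NKG7), and at Leiden resolution 1.5 CD3G in NK-like cells was 0.63 (adjusted p = 0.019) against -0.11. The number of the 9 genes called moved as follows, with the share of all genes called in the same fit in brackets. Vehicle ACI day 14 against day 0 went from 0 to 1 with DESeq2 (3.2%), and vehicle E2 from 0 to 1 with DESeq2 (1.86%). TGFBRi E2 went from 2 to 0 with PTPRC scaling (3.29%), 6 with DESeq2 (11.4%), 4 with only the groups compared (9.02%) and 3 with a mean of at least 10 (7.81%). It went to 5 with the 4 parts of A4-15 separate (7.36%), a fit that counts 1 rat as 4 samples. NMU vehicle tumor went from 3 to 1 without the replicate block of the rat (11.1%) and to 0 with PTPRC scaling (17%). It went to 2 with a pseudocount of 10 (10.6%), without TMM (10.8%) or with edgeR (3.98%), and to 4 with DESeq2 (17.9%) or a mean of at least 10 (13.3%). NMU TGFBRi tumor went from 5 to 6 with DESeq2 (31%) and to 4 other genes, all lower, with PTPRC scaling (66.3%). NK-like cells went from 4 to 3 with DESeq2 (2.91%), which gave GZMB no adjusted p, and at Leiden resolution 1.5 (3.37%). In single cells the replicate block left 1 call in T-like (main 2, share 0.945%) and 1 in NK-like cells (main 4, share 1.98%). The rats' numbers do not pair them, however (correlations of deviations 0.066, -0.025 and -0.009, with 1 of 3 numbers best with its own).

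Leaving out 1 rat gave 0 to 2 calls for ACI day 0, 0 to 2 for the effect at day 14 minus day 0, 0 to 5 for vehicle day 14 (all by LD3L), 0 to 1 for TGFBRi tumor-free against tumor-bearing with E2 (1 tumor-bearing rat being left where A4-9 was out), 0 to 1 for vehicle E2, 0 to 4 for TGFBRi E2, 0 to 4 for NMU vehicle tumor, 4 to 6 for NMU TGFBRi tumor, 1 to 2 for T-like and 1 to 5 for NK-like cells. The T-like share difference was 6.64 to 10.45 percentage points (main 8.73), the NK-like share difference -0.47 to 0.22 (main -0.21) and the CD8-only difference -12.7 to -3.12 (main -6.77). The genes called in all moved from 752 to 444 (PTPRC), 1539 (DESeq2) and 1147 (groups compared) for TGFBRi E2, from 1380 to 485 (edgeR) and 2182 (DESeq2) for NMU vehicle tumor, from 3019 to 8079 (PTPRC) and 1768 (edgeR) for NMU TGFBRi tumor, and with the block from 1061 to 119 in T-like and from 332 to 194 in NK-like cells. Leaving out 1 rat, the genes called in all ranged from 149 to 1237 for TGFBRi E2. For NMU tumor they ranged from 440 to 1723 in vehicle and from 1595 to 3209 in TGFBRi rats. For single cells they ranged from 689 to 1496 in T-like and from 196 to 543 in NK-like cells. The causes were not tested. Depth limits GZMB in single cells most, with 148 UMIs in all.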
